A study of Mus musculus with 4 samples.

Results

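Ide, Btaf1, Cmss1, Cdk8 and Rbm3 are 5 of the 32285 gene rows counted in lung leukocytes of Plaur knockout and wild-type mice. They were chosen by their measured RNA ratio between genotypes: they lay off chromosome 7, where Plaur is, and led the difference between the libraries in both myeloid and lymphoid cells. Ide and Btaf1 RNA was higher, and Cmss1, Cdk8 and Rbm3 RNA lower, in the KO-labelled library in every one of the 19 cell populations compared where the gene had at least 20 UMIs (unique molecular identifiers, each standing for 1 captured RNA molecule). The direction was shared by all of these populations under the main scaling, but the size was not: the log2 ratio ran from -0.44 to -1.29 for Cmss1 and from -0.036 to -0.96 for Rbm3. Rbm3 in plasmacytoid dendritic cells was the exception under another scaling, where its ratio was 0.024. Btaf1 in cDC1 dendritic cells was slightly lower, not higher, in KO-labelled cells when every cell was thinned to 1000 UMIs. The genotype contrast was used to choose the genes, so their differences are given as a description without a test.

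The KO-labelled library came from Plaur KO mice and the WT-labelled library from WT mice, both on the C57B6/J strain. Mice of both genotypes received ovalbumin with lipopolysaccharide on days 0 and 7 and inhaled ovalbumin on day 14, so no unchallenged mice are included. CD45.2+ cells were sorted from digested lung and counted by 10x Genomics 3′ single-cell RNA sequencing in 1 library per genotype. The labels call the cells both circulating leukocytes and a lysate of all lung cells, so which leukocytes the sort holds is not clear. The design names 8 mice per genotype and the labels do not say how many entered a library, so genotype, mouse and library cannot be told apart. After filtering, 9584 KO-labelled and 8684 WT-labelled cells remained, with a median of 2777.5 and 3209 UMIs per cell. Plaur itself was at 455 CPM in KO-labelled and 527 CPM in WT-labelled cells (CPM, UMIs scaled to a total of 1000000 over the cells summed), which is why the libraries are named by their labels. By population Plaur went both ways, with log2 ratios from -2.21 in interstitial macrophages to 4.81 in T cell cluster 7. A 3′ tag can lie outside the deleted part of Plaur, so this level checks nothing, and every direction rests on the labels. Of the cell barcodes, 16 occurred in both libraries. Xist had 2 and 1 UMIs and Ddx3y 4634 and 4058 UMIs in the KO-labelled and WT-labelled library, so RNA of the Y chromosome was counted in both. Small epithelial and fibroblast clusters, with 19 and 16 KO-labelled and 4 and 16 WT-labelled cells, did not enter. T cell cluster 21, with 13 KO-labelled and 0 WT-labelled cells, did not enter either. Unnamed clusters were left out by a naming rule set after the clusters were seen. Of the values left out with these, some ran the other way with intervals that included 0. Btaf1 in unnamed cluster 30 had 7 KO-labelled and 26 WT-labelled UMIs (log2 ratio of KO-labelled to WT-labelled level -0.66, interval -2.11 to 0.58). Ide had 22 and 8 UMIs in KO-labelled and WT-labelled epithelial cells (-0.30, interval -1.52 to 1.08) and 4 and 8 UMIs in KO-labelled and WT-labelled fibroblasts (-1.27, interval -3.45 to 0.63). Rbm3 had 24 UMIs in KO-labelled and 11 UMIs in WT-labelled fibroblasts (0.86, interval -0.23 to 2.04). Clusters were named from marker genes, and 19 populations with at least 50 cells in each library were compared, 9 myeloid and 10 lymphoid, holding 9422 KO-labelled and 8511 WT-labelled cells. All intervals are 95% intervals that cover counting error only, and none covers the spread between mice.

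The genes have different roles, although the products of Btaf1 and Cdk8 both act in transcription. Ide encodes insulin-degrading enzyme, a zinc metallopeptidase of the M16 family that cuts insulin, amyloid beta and other short peptides. Btaf1 encodes an ATPase that removes TATA-binding protein from DNA and so redistributes it between promoters. Cdk8 encodes the kinase of the Mediator kinase module, which works with cyclin C to tune transcription by RNA polymerase II, and it phosphorylates STAT proteins downstream of interferon. Cmss1 encodes the mammalian relative of yeast Cms1, a protein associated with the processome that builds the small ribosomal subunit. Rbm3 encodes an RNA-binding protein that is induced by mild cooling and falls with warming, as does its relative Cirbp.

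The genes lie on 4 chromosomes of the GRCm38.p6 build. Ide spans chr19:37268743-37334544 and Btaf1 spans chr19:36926079-37014057, 254.7 kb apart. Cmss1 spans chr16:57301999-57606867, Cdk8 spans chr5:146230795-146302874 and Rbm3 spans chrX:8138975-8145880. The 200 bases before the RefSeq start are shown for the pair that was higher (Ide, Btaf1) and the pair that was lower in every population with every interval clear of 0 (Cmss1, Cdk8), so that the members moving together can be set side by side. RefSeq supplied the sequences on the GRCm38.p6 build, and Rbm3 has no entry. For Cdk8 the promoter table uses a start inside the gene span given above, so its window lies within that span. Each is written 5′ to 3′ on the gene's own strand, and capitals mark a motif match.
Ide, chr19:37334545-37334744, minus strand: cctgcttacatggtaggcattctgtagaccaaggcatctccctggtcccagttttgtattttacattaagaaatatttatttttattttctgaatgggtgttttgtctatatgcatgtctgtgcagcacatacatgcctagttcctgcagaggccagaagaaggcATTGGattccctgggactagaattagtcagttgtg
Btaf1, chr19:36925879-36926078, plus strand: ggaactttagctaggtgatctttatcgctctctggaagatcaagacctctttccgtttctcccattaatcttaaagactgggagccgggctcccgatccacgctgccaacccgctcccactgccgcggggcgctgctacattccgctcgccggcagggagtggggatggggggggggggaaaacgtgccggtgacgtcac
Cmss1, chr16:57606868-57607067, minus strand: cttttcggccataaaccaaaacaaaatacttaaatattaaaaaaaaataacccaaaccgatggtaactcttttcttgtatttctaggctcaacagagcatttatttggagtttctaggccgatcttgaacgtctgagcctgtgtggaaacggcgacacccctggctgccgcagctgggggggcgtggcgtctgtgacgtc
Cdk8, chr5:146231050-146231249, plus strand: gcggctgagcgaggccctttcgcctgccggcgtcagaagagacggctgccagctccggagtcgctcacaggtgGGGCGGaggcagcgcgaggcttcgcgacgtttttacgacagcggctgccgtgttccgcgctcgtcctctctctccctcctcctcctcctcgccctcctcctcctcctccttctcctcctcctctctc
Both strands were searched for the GC box GGGCGG, the CCAAT box CCAAT, the ETS core CCGGAAG and the TATA box TATAAA, none of which overlapped another match here. The Ide window held a CCAAT match on the opposite strand, 35 to 31 bases before the start (-35 to -31), and the Cdk8 window a GC box at -127 to -122. No match was found in the Btaf1 and Cmss1 windows. Among 32851 RefSeq windows of the same length, 31.05% held the GC box, 29.35% the CCAAT box, 6.292% the ETS core and 9.96% the TATA box. The windows also differed in base composition, with 41.5% G and C for Ide, 60.5% for Btaf1, 46.0% for Cmss1 and 68.0% for Cdk8, against a median of 53.0% over all windows. No motif was shared within the higher or the lower pair.

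**Figure D1:**
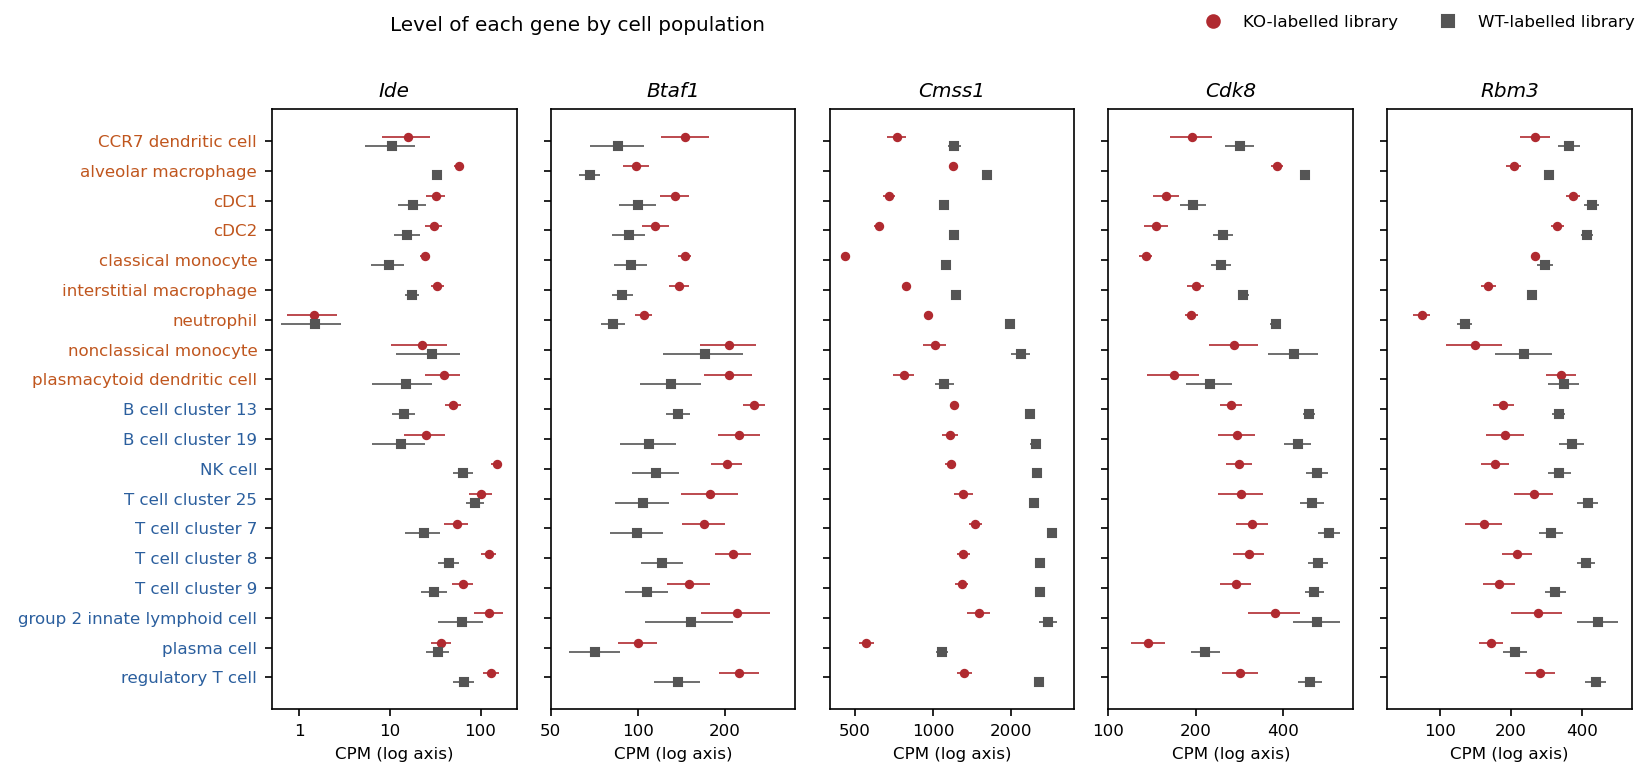
Levels of the 5 genes in CPM on a log axis (a different range for each gene) in 19 cell populations, myeloid names in orange and lymphoid names in blue. Red circles are the KO-labelled and grey squares the WT-labelled library, bars are 95% Poisson intervals of the summed UMIs, and red lies left of grey for Cmss1, Cdk8 and Rbm3 in every population.

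Ide RNA was higher in KO-labelled cells in all 17 populations with at least 20 Ide UMIs over both libraries. Over all kept cells Ide was at 38.0 CPM in the KO-labelled library (1677 UMIs) and 23.5 CPM in the WT-labelled library (961 UMIs), a log2 ratio of 0.70 (0.58 to 0.81); of 15928 genes, 17.1% had an interval above 0 and 35.1% below 0 over all kept cells. The log2 ratio is always KO-labelled over WT-labelled, so that 1 is a 2-fold higher level in KO-labelled cells. NK cells, innate lymphocytes that kill infected or transformed cells, had 150.3 CPM in the KO-labelled and 64.8 CPM in the WT-labelled library (log2 ratio 1.21, interval 0.80 to 1.65). T cell cluster 8 had 124.0 and 44.6 CPM in the KO-labelled and WT-labelled library (1.48, interval 1.00 to 1.97). B cell cluster 13 had 49.9 CPM in KO-labelled and 14.4 CPM in WT-labelled cells (1.79, interval 1.28 to 2.32), the widest difference of the 17 populations. Lymphocytes and macrophages shared the direction. In alveolar macrophages, phagocytes that live in the air spaces, Ide was at 57.9 CPM in the KO-labelled and 32.8 CPM in the WT-labelled library (0.82, interval 0.56 to 1.08). Classical monocytes had 24.5 CPM in KO-labelled cells from 260 UMIs and 9.71 CPM in WT-labelled cells from 24 UMIs (1.33, interval 0.73 to 2.001).

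The Ide difference was not of 1 size. Plasma cells, which secrete antibody, had 36.9 CPM in KO-labelled and 34.1 CPM in WT-labelled cells (0.11, interval -0.46 to 0.69), an interval that did not overlap that of B cell cluster 13. T cell cluster 25 had 101.1 CPM in the KO-labelled and 87.2 CPM in the WT-labelled library (0.21, interval -0.36 to 0.77). The interval lay above 0 in 13 of the 17 populations and included 0 in the other 4. In single populations, 4.39% to 12.3% of all genes had an interval above 0 and 3.18% to 18.6% below 0. Counts were low in several of them: CCR7 dendritic cells held 12 KO-labelled and 11 WT-labelled UMIs. Neutrophils carried almost no Ide, with 11 UMIs (1.47 CPM) in the KO-labelled and 8 UMIs (1.48 CPM) in the WT-labelled library, too few to show a difference at this depth. Nonclassical monocytes were also below the minimum, with 9 UMIs (22.67 CPM) in the KO-labelled and 7 UMIs (29.05 CPM) in the WT-labelled library. Their log2 ratio was on the lower side, at -0.36 (interval -1.95 to 1.30). The mean log2 ratio over the 17 populations was 0.99 (counting interval 0.82 to 1.16), with an SD of 0.42 between populations beside a counting error of 0.36 (root mean square over populations). Lymphoid and myeloid means were 1.00 over 10 and 0.98 over 7 populations.

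By level, NK cells stood first for Ide in the KO-labelled library, then regulatory T cells at 131.6 CPM, and T cell cluster 25 stood first in the WT-labelled library, then regulatory T cells at 65.1 CPM. Counting intervals of such neighbours in the order overlapped, and neutrophils were lowest in both libraries.

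Btaf1 RNA was higher in KO-labelled cells in all 19 populations compared, and the interval lay above 0 in 17 of them. Unnamed cluster 30, left out by the naming rule, was on the lower side (-0.66, interval -2.11 to 0.58). Btaf1 was at 142.2 CPM in the KO-labelled and 93.5 CPM in the WT-labelled library over all kept cells (log2 ratio 0.61, interval 0.55 to 0.66). B cell cluster 13 had 252.2 CPM in KO-labelled and 137.8 CPM in WT-labelled cells (0.87, interval 0.69 to 1.06). Interstitial macrophages, which lie in the lung tissue rather than the air spaces, had 138.8 CPM in the KO-labelled and 88.4 CPM in the WT-labelled library (0.65, interval 0.48 to 0.82). Neutrophils, for which Ide could not be read, had 104.7 CPM from 783 KO-labelled UMIs and 82.0 CPM from 444 WT-labelled UMIs (0.35, interval 0.18 to 0.52). The range was narrower than for Ide. It went from 0.28 in nonclassical monocytes, whose interval included 0, to 1.04 in B cell cluster 19, and those 2 intervals overlapped. In cDC1 it was 0.42, and -0.027 when every cell was thinned to 1000 UMIs. The mean over populations was 0.62 (0.54 to 0.71), with an SD of 0.21 between populations and a counting error of 0.18. Lymphoid populations averaged 0.73 and myeloid populations 0.51, a difference of 0.22 (counting interval 0.059 to 0.38). Ide and Btaf1 did not follow each other closely from population to population: over the 17 where both were measured, their log2 ratios had a Pearson r of 0.27, and their levels 0.45 in the KO-labelled and 0.26 in the WT-labelled library. All such correlations are over populations that share the same 2 libraries and differ in depth, and serve as description.

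**Figure D2:**
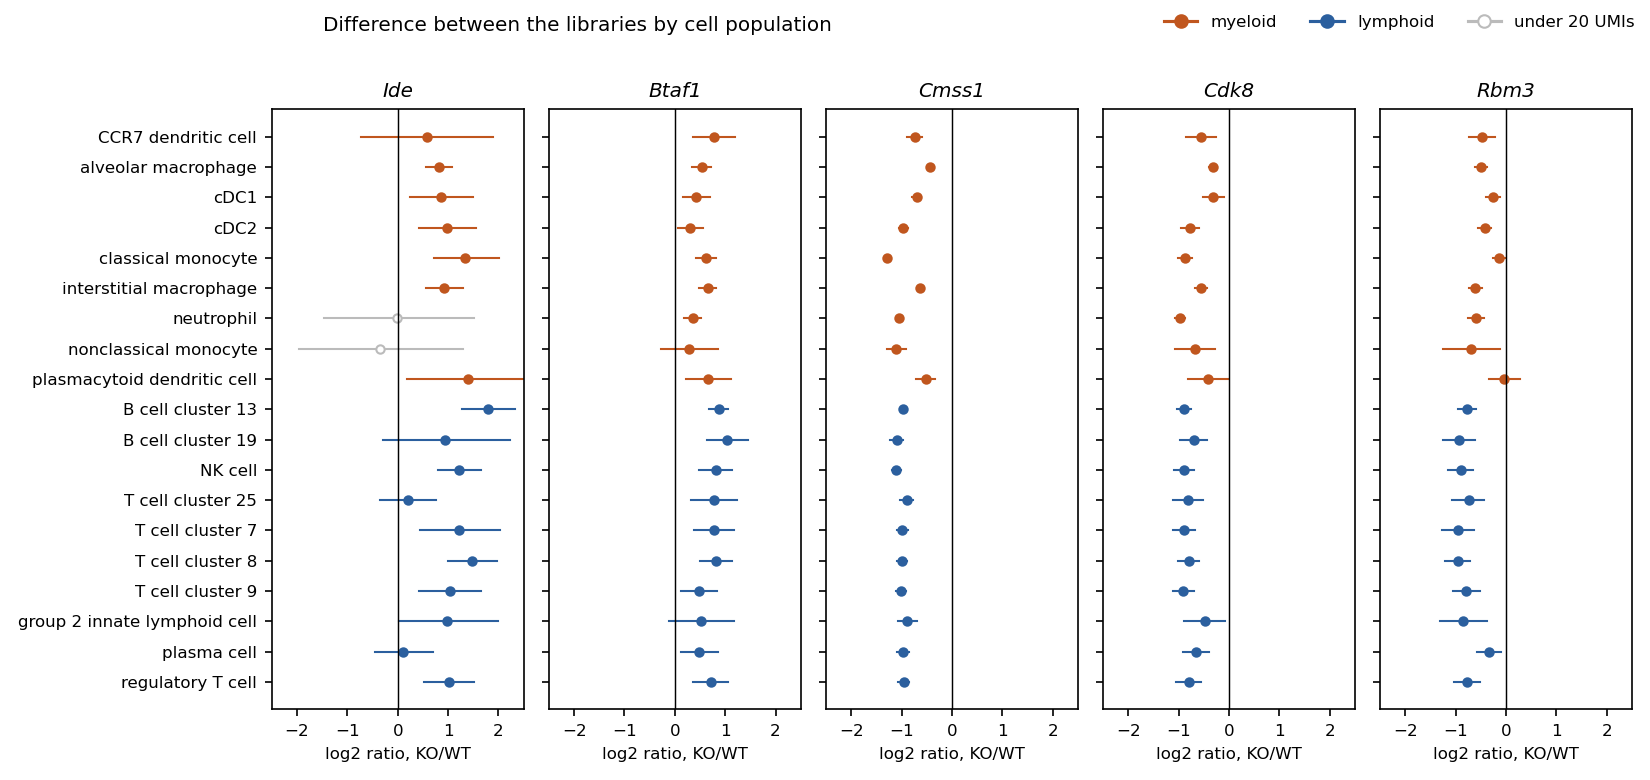
KO-labelled over WT-labelled level, as a log2 ratio, for the 5 genes in 19 cell populations, with 95% counting intervals and a vertical line at 0. Orange points are myeloid, blue points lymphoid and open grey points have under 20 UMIs over both libraries; Ide and Btaf1 lie right of 0 and the other genes left of 0 in every filled point.

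Cmss1 RNA was lower in KO-labelled cells in all 19 populations, with every interval below 0. Over all kept cells it was at 838.5 CPM in the KO-labelled library (36956 UMIs) and 1722 CPM in the WT-labelled library (70536 UMIs), a log2 ratio of -1.04 (-1.06 to -1.02). The 10 lymphoid populations lay close together. T cell cluster 7 had 1453 CPM in KO-labelled and 2869 CPM in WT-labelled cells (-0.98), B cell cluster 13 had 1209 and 2369 CPM in the KO-labelled and WT-labelled library (-0.97), and plasma cells had 554.1 and 1081 CPM (-0.96). The lymphoid range was -1.10 to -0.89. Myeloid populations spread over more than the lymphoid ones, from -1.29 in classical monocytes to -0.44 in alveolar macrophages. Classical monocytes had 458.6 CPM in KO-labelled and 1120 CPM in WT-labelled cells (interval -1.36 to -1.22). Alveolar macrophages had 1192 CPM in the KO-labelled and 1612 CPM in the WT-labelled library (interval -0.48 to -0.39). The mean over populations was -0.91 (-0.94 to -0.88), and the SD of 0.21 between populations stood beside a counting error of 0.059.

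Cdk8 RNA differed in the same direction as Cmss1. It was lower in KO-labelled cells in all 19 populations, with every interval below 0, and stood at 207.5 CPM in the KO-labelled and 384.0 CPM in the WT-labelled library over all kept cells (log2 ratio -0.89, interval -0.93 to -0.85). Neutrophils had 193.4 CPM in KO-labelled and 377.6 CPM in WT-labelled cells (-0.97, interval -1.06 to -0.87). Classical monocytes had 134.4 and 244.8 CPM in the KO-labelled and WT-labelled library (-0.87). Alveolar macrophages were again among the least different, with 382.2 CPM in KO-labelled and 476.7 CPM in WT-labelled cells (-0.32, interval -0.41 to -0.23), and so were cDC1, dendritic cells that cross-present antigen, with 158.5 and 196.5 CPM (-0.31, interval -0.52 to -0.097). The mean over populations was -0.70 (-0.75 to -0.64), with an SD of 0.21 and a counting error of 0.12. Across the 19 populations the Cmss1 and Cdk8 ratios had a Pearson r of 0.80 (Spearman rho 0.70), and their levels 0.94 in the KO-labelled and 0.96 in the WT-labelled library.

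Neutrophils fell into 4 clusters, and cluster 0 held 998 KO-labelled but 163 WT-labelled cells, so the mix of clusters differed between libraries. Cmss1 log2 ratios within neutrophil clusters 0, 1, 5 and 20 were -1.24, -1.09, -0.99 and -1.14. The Cdk8 ratios of those clusters were -1.21, -0.92, -0.88 and -1.06, so both genes were lower within each. Rbm3 ratios in the same clusters were -0.47, -0.19, -0.60 and -0.54, and Btaf1 ratios 0.68, 0.13, 0.48 and 1.24. For Rbm3 and for Btaf1 the intervals in clusters 0 and 1 included 0. In the interstitial macrophage clusters 3 and 6, with 388 and 302 KO-labelled and 262 and 527 WT-labelled cells, Cmss1 ratios were -0.64 and -0.60, Cdk8 ratios -0.50 and -0.55 and Ide ratios 1.25 and 0.90. Alveolar macrophage clusters 10 and 27 had Cmss1 ratios of -0.46 and -0.38, both nearer to 0 than any neutrophil cluster. Their Cdk8 ratios were -0.34 and -0.16, the second with an interval that included 0 (-0.48 to 0.16).

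Rbm3 RNA was lower in KO-labelled cells in all 19 populations, and the interval was below 0 in 18. Its all-cell level was 208.9 CPM in the KO-labelled and 293.6 CPM in the WT-labelled library (log2 ratio -0.49, interval -0.53 to -0.45). Lymphoid cells carried the larger difference on average, although the ranges of the lineages overlapped. T cell cluster 8 had 212.4 CPM in KO-labelled and 414.0 CPM in WT-labelled cells (-0.96, interval -1.21 to -0.72). NK cells had 171.7 and 320.9 CPM in the KO-labelled and WT-labelled library (-0.90), and group 2 innate lymphoid cells, which respond to allergen with type 2 cytokines, had 259.2 and 466.7 CPM (-0.85). The lymphoid exception was the plasma cell, at 165.1 CPM in the KO-labelled and 208.4 CPM in the WT-labelled library (-0.34, interval -0.58 to -0.092). In classical monocytes Rbm3 was at 253.5 CPM in KO-labelled and 279.6 CPM in WT-labelled cells (-0.14, interval -0.26 to -0.019, and -0.027 with TMM and -0.037 with DESeq2 size factors). Within classical monocyte clusters 16 and 18 the Rbm3 ratios were -0.20 (interval -0.51 to 0.11) and -0.12 (interval -0.25 to 0.015). Both of these intervals included 0. Plasmacytoid dendritic cells, the main producers of type I interferon, had 327.1 CPM in the KO-labelled and 335.5 CPM in the WT-labelled library (-0.036, interval -0.34 to 0.27, and 0.024 with DESeq2 size factors). Classical monocytes thus had the widest Cmss1 difference of the 19 populations and 1 of the smallest Rbm3 differences. Among other myeloid populations, the Rbm3 ratio was -0.69 in nonclassical monocytes, -0.61 in interstitial macrophages and -0.61 in neutrophils. The Rbm3 mean was -0.80 over lymphoid and -0.42 over myeloid populations, a difference of -0.38 (counting interval -0.51 to -0.26). Over all 19 populations it was -0.62 (-0.68 to -0.56), with an SD of 0.28 and a counting error of 0.14.

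Cells were shallower in the KO-labelled library in every population except classical monocytes, where the median was 9082.5 UMIs against 8112.5 UMIs in WT-labelled cells. Over populations, the log2 ratio of median UMIs per cell had a Pearson r with the log2 ratio of Ide of 0.18 (17 populations), of Btaf1 of -0.19, of Cmss1 of -0.34, of Cdk8 of -0.16 and of Rbm3 of 0.47 (19 populations). The part of depth in the differences was not tested.

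Set against all 9505 genes measured in at least 6 populations, a shared direction was uncommon. The rule used this contrast, so these shares are given beside the counts and nothing is read from them. Higher in every population were 56 genes (0.589%), with Ide and Btaf1 among them, and lower in every population were 54 (0.568%), with Cmss1, Cdk8 and Rbm3 among them. An interval below 0 in every population where the gene was measured was found for 6 genes (0.0631%). They were Cdk8, Cmss1, Gm42418 and Tpt1, measured in 19 populations, Apoe, measured in 14, and Gpnmb, measured in 7. The interval was above 0 in every such population for Dynll1 and Hspa8, measured in 19, and Gm43305, measured in 13 (0.0316%). In at least 14 populations it was above 0 for 21 genes (0.221%), Btaf1 included, and below 0 for 19 genes (0.2%), Rbm3 included. Ide, measured in 17 populations with 13 intervals above 0, was under that number. Both interval counts were chosen after the values were seen. No member kept a size of at least 0.5 log2 units in every population, although Ide did so in 15 of 17, Cmss1 in 18 of 19, Cdk8 in 15, Btaf1 in 13 and Rbm3 in 12. The genes that did where measured were Gm43305 (13 populations), Irgc1 (11), Gm42047 (8), Gm42031 (8) and Hsph1 (18), higher in KO-labelled cells (0.0526%). Apoe (14 populations) was the gene that did so on the lower side (0.0105%). Irgc1 and Apoe lie on chromosome 7, as Plaur does. The mean ratio over populations had a median of -0.0041 over all 9505 genes, with a 5th percentile of -0.31 and a 95th percentile of 0.27.

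**Figure D3:**
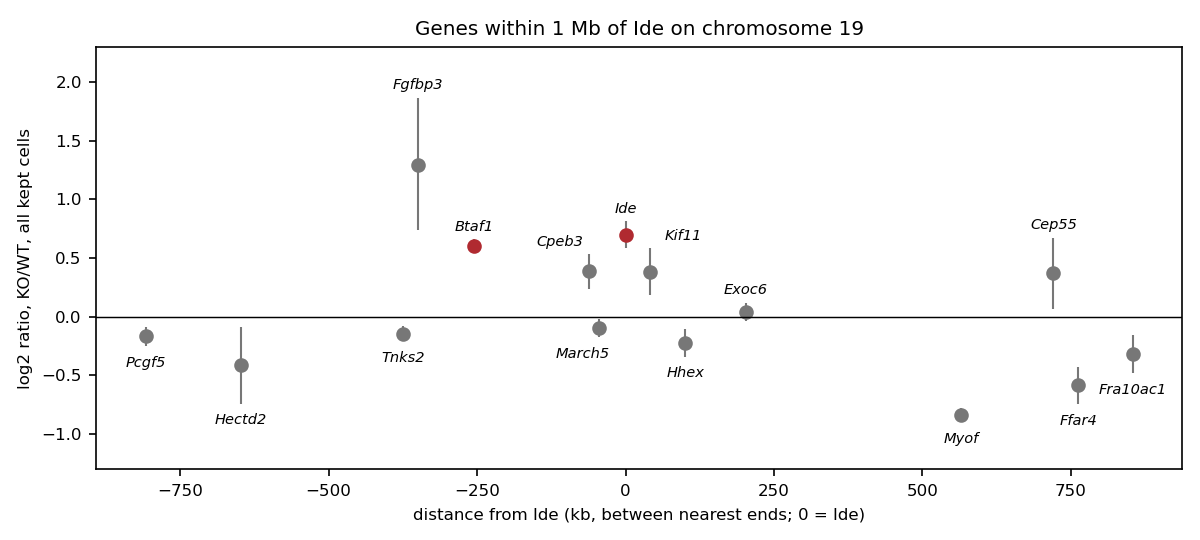
Ratio (log2) of the KO-labelled over the WT-labelled level over all kept cells, with 95% counting intervals, for genes within 1 Mb of Ide that had at least 100 UMIs, by distance from Ide in kb. Ide and Btaf1 (red) are at 0.70 and 0.61. Between them Cpeb3 is at 0.39 and March5 lies just below 0. Beyond Btaf1, Fgfbp3 is at 1.29 and Tnks2 lies just below 0.

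Of the genes with at least 100 UMIs, Cpeb3 and March5 lie between Btaf1 and Ide, and the genes around the pair did not all share its direction. Next to Btaf1, 6.5 kb away, Fgfbp3, which encodes a carrier of fibroblast growth factors, was at 2.27 CPM (100 UMIs) in the KO-labelled and 0.928 CPM (38 UMIs) in the WT-labelled library (log2 ratio 1.29, interval 0.74 to 1.87). Only 1 population held at least 20 Fgfbp3 UMIs. Cpeb3, a translational regulator that binds mRNA, was at 20.3 CPM in KO-labelled and 15.6 CPM in WT-labelled cells (0.39, interval 0.24 to 0.54), with 2 of 7 population intervals above 0. March5, a mitochondrial ubiquitin ligase 44.3 kb from Ide, was at 59.99 CPM in the KO-labelled and 64.2 CPM in the WT-labelled library (-0.098, interval -0.18 to -0.019), and it was higher in 8 and lower in 11 populations. The higher level of Ide and Btaf1 was thus not shared by March5, which lies between them. On the far side of Btaf1, Tnks2 was at 89.6 and 99.1 CPM in the KO-labelled and WT-labelled library (-0.15), and on the far side of Ide, Kif11 was at 11.1 and 8.54 CPM (0.38), Hhex at 25.7 and 29.96 CPM (-0.22) and Exoc6 at 63.1 and 61.3 CPM (0.042). These all-cell values mix the make-up of the libraries: Kif11 was higher in 3 and lower in 2 of its populations. Of the 14 measured genes within 1 Mb of Ide, 5 had an interval above 0, 1 of them the chosen member Btaf1, and 8 below, with a median log2 ratio of -0.12. Of 15928 genes over all kept cells, 17.1% had an interval above 0 and 35.1% below. Copy number changes that include Ide and neighbouring genes have been described in C57BL/6J mice. No DNA was measured here, and the part of copy number in the Ide and Btaf1 differences was not tested.

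Neighbours of Cmss1, Cdk8 and Rbm3 had median ratios of -0.11, -0.12 and 0.046 over all kept cells, beside -0.10 for all genes. Filip1l, an overlapping gene inside the Cmss1 span, was at 103.4 CPM in KO-labelled and 120.3 CPM in WT-labelled cells (-0.22), lower in 16 of 19 populations with 4 intervals below 0 and 1 above. The sources used here do not say whether reads were assigned by strand or from introns, so reads of overlapping genes may not be separated. Within 1 Mb of Cmss1, 8 genes were measured, with 2 intervals above 0 and 4 below. Rnf6, 9.3 kb from Cdk8, was at 35.9 CPM in the KO-labelled and 34.5 CPM in the WT-labelled library (0.059, interval -0.045 to 0.16), and of the 9 genes measured around Cdk8, 2 had an interval above 0 and 3 below. Wdr13, 6.1 kb from Rbm3 on the X chromosome, was at 7.85 and 9.86 CPM in the KO-labelled and WT-labelled library (-0.33), and Tbc1d25, 8.6 kb away on the other side, was at 3.74 and 3.66 CPM (0.032, interval -0.30 to 0.36). Of the 26 genes measured around Rbm3, 8 had an interval above 0 and 4 below. Beside these neighbour counts, 17.1% of 15928 genes had an interval above 0 and 35.1% below over all kept cells.

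Genes that work with the members had medians of their mean ratios over populations near that of all genes. Among 31 other Mediator genes measured in at least 6 populations, the median of the mean ratios was 0.029, beside -0.0041 for all genes. Over all kept cells, 8 of 32 Mediator genes were higher and 24 lower, where 5022 of 13964 genes were higher and 8942 lower. The other members of the kinase module, Ccnc, Med12 and Med13, had means over populations of 0.073, 0.043 and 0.029. The paralogues of the module were lower in more populations than they were higher: Med12l had a mean of -0.49 with 10 of 13 populations lower, and Med13l a mean of -0.081 with 14 of 19 lower. Each had 4 intervals below 0 and 1 above, and over all kept cells Med12l was at 17.4 and 18.4 CPM and Med13l at 200.8 and 195.3 CPM in the KO-labelled and WT-labelled library. Cdk19, the paralogue of Cdk8, was at 48.4 CPM in the KO-labelled and 58.2 CPM in the WT-labelled library with a mean of -0.17. The outer members of that list over all kept cells were Med7 (0.39) and Med31 (0.35) on the higher side and Med22 (-0.62) and Med26 (-0.33) on the lower side. For 29 genes of TATA-binding protein and its regulators, the partners of Btaf1, the median of means was 0.020 with 13 higher and 16 lower over all kept cells, and Tbp was at 9.28 CPM in KO-labelled and 9.11 CPM in WT-labelled cells. The 43 small-subunit processome genes had a median of means of 0.0018 with 5 higher and 38 lower over all kept cells. There their median was -0.19 with 30 of 43 intervals below 0, beside a median of -0.10 with 5419 of 13964 for all genes. Peptide-degrading metallopeptidases listed with Ide had one of -0.021 over 13 genes, with 5 of 14 higher and 9 lower over all kept cells. Nrd1, another peptidase of the M16 family, was at 110.0 CPM in the KO-labelled and 102.8 CPM in the WT-labelled library, with a mean over populations of 0.066.

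**Figure D4:**
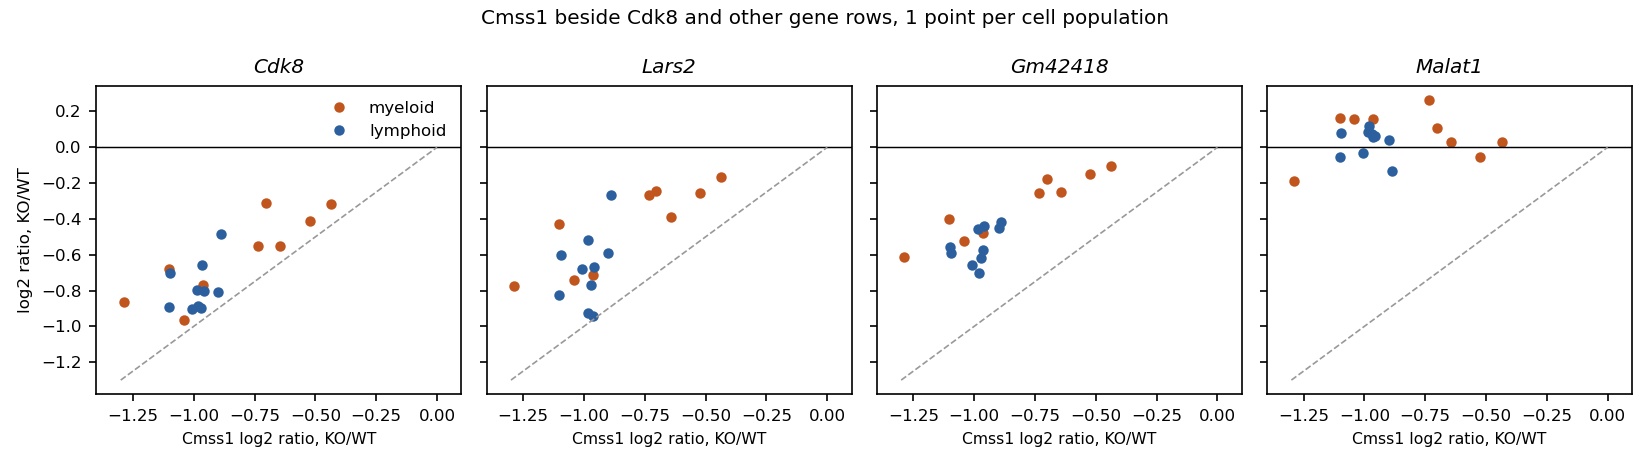
Log2 ratios (KO-labelled over WT-labelled) of Cdk8, Lars2, Gm42418 and Malat1 on the vertical axes against that of Cmss1 on the horizontal axis, 1 point per cell population (19), myeloid in orange and lymphoid in blue; the dashed line marks equal ratios. Cdk8, Lars2 and Gm42418 lie below 0 throughout and tend to be nearer to 0 where Cmss1 is, while Malat1 lies around 0.

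Some gene rows of other functions had the pattern of Cmss1 and Cdk8 over populations. The closest to Cdk8 was Lars2, a mitochondrial leucyl-tRNA synthetase, with a root mean square difference in log2 ratio of 0.18 over 19 populations, followed by Gphn, a scaffold protein gene (0.27 over 19), and Cgas, the cytosolic DNA sensor (0.27 over 11). Lars2 was at 314.4 CPM in the KO-labelled and 513.8 CPM in the WT-labelled library, and lower in 19 of 19 populations with 17 intervals below 0. Gphn was at 358.0 and 572.7 CPM in the KO-labelled and WT-labelled library, also lower in 19 of 19. In alveolar macrophages the Lars2 ratio was -0.16 and in neutrophils -0.74, the same ordering as for Cmss1 and Cdk8. Gm42418, a predicted-gene row that overlaps the ribosomal RNA repeat, was at 25950 CPM in KO-labelled and 38990 CPM in WT-labelled cells, with every interval below 0, from -0.70 to -0.11 over populations. Its log2 ratio had a Pearson r of 0.86 with that of Cmss1 and 0.87 with that of Cdk8 over 19 populations. AY036118, another row in that repeat, was at 419.9 and 619.3 CPM in the KO-labelled and WT-labelled library, and Camk1d at 1024 and 1486 CPM. Malat1 and Neat1, RNAs retained in the nucleus, did not share the direction in every population: Malat1 was at 10610 CPM in the KO-labelled and 9774 CPM in the WT-labelled library and higher in 14 of 19 populations, and Neat1 at 334.9 and 294.8 CPM and higher in 9. Of the 12 measured rows on this list, 8 were lower and 4 higher over all kept cells, with a median of means of -0.28. For all genes, 8942 of 13964 were lower and 5022 higher, with a median of means of -0.0041. What the listed rows share was not tested.

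The rows nearest to the other members by the same measure were measured in fewer populations. For Cmss1 they were Gm4951 (0.30 over 7), Ptgs2, the inducible cyclooxygenase gene (0.33 over 9), and Kcnip1 (0.33 over 7), all further from it than Cdk8 was (0.25 over 19). For Btaf1 they were Apba3 (0.22 over 6), Hilpda (0.23 over 11) and Nectin1 (0.27 over 8). For Ide they included Vdr, the vitamin D receptor gene (0.41 over 7), and Bend4 (0.41 over 7), against 0.52 over 17 for Btaf1. For Rbm3 they were Uap1l1 (0.20 over 9), Ftl1-ps1 (0.24 over 9) and Gm44686 (0.26 over 6).

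**Figure D5:**
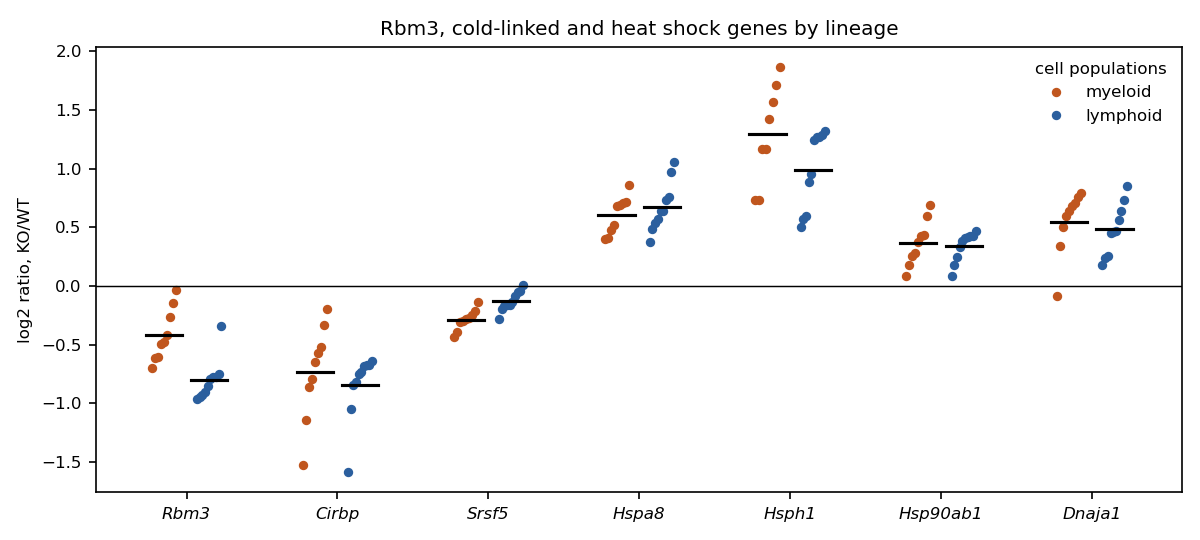
Log2 ratios (KO-labelled over WT-labelled) of Rbm3, 2 other genes of the cold-linked list and 4 heat shock genes, 1 point per cell population with at least 20 UMIs, myeloid in orange and lymphoid in blue, with black bars at the lineage means. Rbm3 and Cirbp lie below 0 and the heat shock genes above it in both lineages, apart from 1 Dnaja1 point.

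Cirbp, the other cold-inducible RNA-binding protein gene, was also lower: it was at 30.9 CPM in the KO-labelled and 49.3 CPM in the WT-labelled library, in 19 of 19 populations with 17 intervals below 0 and a mean of -0.79. Unlike Rbm3, its lineage means were close, at -0.84 over lymphoid and -0.73 over myeloid populations, and the ratios of Rbm3 and Cirbp had a Pearson r of 0.018 over 19 populations. The 12 cold-linked genes listed beside Rbm3, Cirbp among them, had a median of means of -0.0065, with 6 means above 0 and 6 below. Over all kept cells 9 of them were lower, 8 with an interval below 0, and 3 were higher, each with an interval above 0. Srsf5, a splicing factor gene, was at 444.2 CPM in the KO-labelled and 492.6 CPM in the WT-labelled library and lower in 18 of 19 populations with 11 intervals below 0 and a mean of -0.20. Genes of the heat shock response, which encode chaperones, were on the other side of 0. All 14 listed were higher in KO-labelled cells over all kept cells, 13 of them with an interval above 0, and the median of means over 13 genes was 0.44. Of 13964 genes over all kept cells, 5022 were higher, 2582 of them with an interval above 0, and 8942 were lower. The median of means for all genes was -0.0041. Hspa8, the constitutive Hsp70, was at 1114 CPM in KO-labelled and 712.9 CPM in WT-labelled cells, higher in 19 of 19 populations with every interval above 0. Hsph1, its nucleotide exchange factor, was at 39.8 CPM in the KO-labelled and 21.2 CPM in the WT-labelled library, with a mean of 0.99 over 10 lymphoid and 1.30 over 8 myeloid populations. Hspa1b was at 7.99 and 3.78 CPM in the KO-labelled and WT-labelled library. Hspd1 (118.8 and 112.7 CPM) and Bag3 (15.7 and 15.04 CPM) had the smallest ratios over all kept cells, 0.076 and 0.064, and were higher in 18 of 19 and 9 of 11 populations with means of 0.39 and 0.44. Dnajb1 had the lowest mean of the 13 genes, 0.077, and was higher in 12 of 18 populations. Temperature and handling of the cells are not recorded in the labels, and their part in the Rbm3 difference was not tested.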

How the data were processed

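Raw UMI counts, 1 per gene row and barcode, were deposited without scaling, and the file headers name Cell Ranger 7.0.0 as their source. The submitters' processing notes name Cell Ranger 7.1.0 and 7.0.0 and the mm10 build. Antibody tags were not used. The members and gene lists were chosen with earlier results of these data known.

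Barcodes with under 200 genes or over 10% mitochondrial UMIs were removed, which were 61 KO-labelled and 80 WT-labelled barcodes. Scrublet (scanpy 1.11.5, expected 8%) removed 457 and 260 doublets. Clustering used 3000 variable genes (the 5 members, Plaur and sex-linked, receptor variable, ribosomal and mitochondrial genes were kept out), 30 components, 15 neighbours and Leiden resolution 1, which gave 31 clusters. A name needed 3 markers found in 20% of cells and 2-fold over other cells. The rule that left clusters 11, 14 and 30 unnamed, for leading genes against the name, was set after the clusters were seen. T and B cells entered by cluster, because a cluster of each was led by markers of another set.

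No test was possible with a single library of each genotype. Counts were added up per library and population, with exact Poisson intervals for CPM and exact conditional binomial intervals for ratios. The ratio intervals were run on simulated Poisson counts at NK cell and neutrophil levels. Those counts follow the model the interval assumes, so extra spread between cells was not checked. A ratio needed 20 UMIs over both libraries and a gene 6 populations. Free RNA was not corrected. Named are the members, their 3 nearest patterns, genes with 1 sign and at least 0.5 log2 units in every population, neighbours within 1 Mb at 100 UMIs, and up to 2 highest and 2 lowest of a list at 50 UMIs. Of the nearest patterns, 1 is not reported here. Other list members and rows with intervals on 1 side were named after their values were seen. Alternatives changed scaling (edgeR 4.0.16 TMM, DESeq2 1.42.0), cell filters, doublets, clustering, depth, single cells and minimums. Python 3.11.15, SciPy 1.17.1 and R 4.3.3 were used.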

Additional observations from a re-analysis of the deposited data

How the results depend on the processing

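The mean ratio of each member kept its direction under 12 alternatives, from 0.85 to 1.13 for Ide, 0.58 to 0.68 for Btaf1, -0.92 to -0.87 for Cmss1, -0.74 to -0.65 for Cdk8 and -0.67 to -0.56 for Rbm3. The Rbm3 mean was -0.56 with doublet calls kept, and the Cmss1 mean was -0.87 with cells thinned to 1000 UMIs. Both lay outside the counting interval of the mean, and the cause was not tested, although keeping doublets also gave 14 classes in place of 19 populations. In cDC1 the Btaf1 ratio was -0.027 with thinned cells, which hold fewer UMIs, and in plasmacytoid dendritic cells the Rbm3 ratio was 0.024 with DESeq2 size factors. Among single-population values, 954 moved by less than their interval, the Rbm3 value just named included, and 30 moved further without a change of sign. Genes with 1 sign and at least 0.5 in every population numbered 5 higher and 1 lower; a size of 1 left 1 higher and 0 lower, and a minimum of 50 UMIs left 2 higher and 2 lower, as fewer populations enter. TMM factors shifted all ratios of a population by -0.12 to 0.11 and DESeq2 size factors by -0.065 to 0.11. No paired analysis was possible because each genotype has 1 library. Nothing here measures the spread between mice, and populations are not replicates.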
